A study of Homo sapiens with 12 samples.

Results

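The 2 engineered activators of the series, dCas9-VP64 and dCas9-p300 core, were compared here with its 2 inactive proteins, dCas9 alone and dCas9-p300 D1399Y, to ask which genes follow IL1RN when it is switched on by either route. Libraries were taken by the transfected protein named in their labels, which gave 6 activator and 6 inactive libraries and so used all 12 libraries of the series. HEK293T, an established human embryonic kidney line carrying the SV40 large T antigen, was transiently transfected in triplicate with 1 of the 4 proteins, and all 4 groups of 3 libraries also received guide RNAs at 4 sites of IL1RN. No group lacked the guides, and a transiently transfected culture keeps some untransfected cells. Polyadenylated RNA was sequenced, and reads per RefSeq transcript were summed to 1 count per gene. In every comparison of the classes the means of the groups weighed equally.

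dCas9 is a Cas9 nuclease whose cutting sites are disabled, so that the guide RNA only brings it to its target. VP64 is a transcriptional activation domain built from copies of a short herpesvirus VP16 segment, which recruits coactivators such as Mediator. The p300 core is the catalytic part of the acetyltransferase p300, which places acetyl groups on histone H3 lysine 27 and other lysines, and D1399Y is a substitution in that domain that removes its acetyltransferase activity. IL1RN encodes the interleukin 1 receptor antagonist, which occupies the receptor IL1R1 without starting a signal and so limits the response to IL1A and IL1B.

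Sequences before annotated starts of 3 genes are shown because the levels of these genes carry the results that follow. IL1RN is the gene the guides address, and TRIM61 is a gene whose activator libraries all lay above the inactive ones. KDR was called for the p300 core against both inactive proteins. Each line holds the 250 bases before a RefSeq start site on the strand of the gene, in build GRCh38.p14, with capitals where either of the common promoter motifs TATAAA and GGGCGG occurs on either strand. The counts themselves rest on build hg19, and the guide sequences were not used here.
IL1RN, upstream start, chr2:113117721-113117970, plus strand: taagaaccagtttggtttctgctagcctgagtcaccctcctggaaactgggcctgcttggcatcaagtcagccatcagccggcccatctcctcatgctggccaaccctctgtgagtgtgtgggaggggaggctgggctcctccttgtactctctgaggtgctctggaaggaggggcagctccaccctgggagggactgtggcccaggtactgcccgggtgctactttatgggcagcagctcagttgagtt
IL1RN, downstream start, chr2:113127348-113127597, plus strand: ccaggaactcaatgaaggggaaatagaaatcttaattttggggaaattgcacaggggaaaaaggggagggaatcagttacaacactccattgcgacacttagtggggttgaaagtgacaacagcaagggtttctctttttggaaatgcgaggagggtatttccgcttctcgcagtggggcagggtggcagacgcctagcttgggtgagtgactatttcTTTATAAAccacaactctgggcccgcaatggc
TRIM61, chr4:164977658-164977907, minus strand: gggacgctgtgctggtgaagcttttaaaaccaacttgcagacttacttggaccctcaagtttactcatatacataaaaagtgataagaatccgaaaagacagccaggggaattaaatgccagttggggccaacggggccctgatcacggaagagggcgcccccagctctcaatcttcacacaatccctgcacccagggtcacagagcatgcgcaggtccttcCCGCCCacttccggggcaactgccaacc
KDR, chr4:55125596-55125845, minus strand: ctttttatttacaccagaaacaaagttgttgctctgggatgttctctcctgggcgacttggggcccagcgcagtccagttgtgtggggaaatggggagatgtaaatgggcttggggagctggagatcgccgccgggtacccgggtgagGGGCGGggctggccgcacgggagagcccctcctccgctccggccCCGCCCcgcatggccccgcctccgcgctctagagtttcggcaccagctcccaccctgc

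The downstream IL1RN window held 6 CpG dinucleotides and a GC content of 48.4%, with TATAAA 30 bases before the start. The capitals there cover TTTATAAA, in which the motif reads on both strands in overlapping positions. The upstream IL1RN window held 2 CpG, a GC content of 59.6% and neither motif. RefSeq gives IL1RN a further start, whose window (chr2:113127239-113127488) overlaps the downstream one and is not printed. It held 2 CpG and neither motif. The TRIM61 window held 8 CpG and 1 GGGCGG, and the KDR window held 17 CpG and 2 GGGCGG. Over the 35116 promoter windows of this length in the RefSeq table, the median was 11 CpG and 58.0% GC, 10.7% held TATAAA and 42.6% held GGGCGG. These are descriptions of the letters and not of binding.

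Library totals ran from 2442960 counts (dCas9 replicate 3) to 5154627 counts (dCas9-p300 core replicate 2). The shallowest library also stood apart. Over 11556 genes at 10 CPM (TMM-scaled counts per 1000000) or more, the root mean square log2 deviation of dCas9 replicate 3 from the mean of all libraries was 0.656, against 0.150 to 0.339 in the other 11. The deposited rows of EP300, the gene from which the p300 core was taken, checked the p300 plasmids. EP300 counts were 1335 to 1757 in the 6 libraries with a p300 fusion and 140 to 609 in the 6 without one, and the counts do not tell the core from its D1399Y form. With 1 p300 fusion on each side, the EP300 difference between the classes did not pass (log2 difference 0.07 ± 0.18 SE, unadjusted p = 0.70 by edgeR's quasi-likelihood test). Its sign reversed to -0.09 without dCas9 replicate 3.

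IL1RN rose with both activators and was the 1 gene of 14621 tested that passed the threshold between the classes. In the 3 dCas9 libraries its level was 4.24, 6.68 and 9.48 CPM. The 3 dCas9-p300 D1399Y libraries held 6.49, 7.55 and 9.28 CPM. With dCas9-VP64 it was 23.4, 19.3 and 31.3 CPM, and with dCas9-p300 core 73.2, 87.6 and 89.3 CPM. Every activator library lay above every inactive library, the nearest being 19.3 and 9.48 CPM, and the 3 core libraries lay above the 3 VP64 libraries. The group means were 6.80 ± 2.63, 7.78 ± 1.41, 24.7 ± 6.10 and 83.3 ± 8.82 CPM (SD, n = 3 each, in that order). The values rest on 15 to 35 reads per inactive library and 76 to 455 per activator library.

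**Figure D1:**
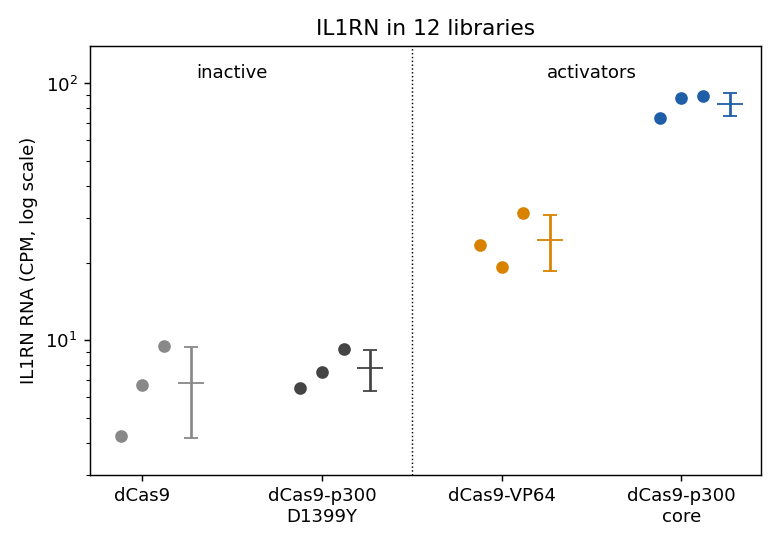
IL1RN level in each of the 12 libraries, in CPM on a log axis, by group; points are libraries, and the cross beside them gives the group mean ± SD (n = 3). The 6 activator libraries, from 19.3 to 89.3 CPM, all lie above the 6 inactive libraries, which end at 9.48 CPM.

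With group means weighed equally, IL1RN was 6.29-fold higher with the activators (95% interval 4.79 to 8.25, log2 difference 2.65 ± 0.18 SE), with an adjusted p of 1.27e-05 by edgeR's quasi-likelihood test with Benjamini-Hochberg adjustment over all genes. That call is 0.00684% of the genes tested. An exact two-sided permutation test on log2 CPM gave p = 0.00216, the smallest that 6 libraries against 6 allow. Without dCas9 replicate 3 the log2 difference was 2.78. The library descriptions carry the prefixes CV41 (10 libraries) and CV42 (2 libraries), whose meaning is not stated. Among the CV41 libraries, 5 against 5, the log2 difference was 2.71 (adjusted p = 0.000636, edgeR). The CV42 pair, 1 core and 1 D1399Y library, held 89.3 and 9.28 CPM, a 9.62-fold ratio with no replicate.

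Each route raised IL1RN against the same 6 inactive libraries, by different amounts. dCas9-VP64 gave a 3.42-fold higher level (95% interval 2.48 to 4.71, adjusted p = 0.0145, edgeR), and dCas9-p300 core an 11.5-fold higher level (8.59 to 15.5, adjusted p = 8.77e-07, edgeR). The VP64 call was lost among the CV41 libraries alone, and also without any 1 of dCas9 replicate 2, dCas9-VP64 replicates 1 and 3, or dCas9-p300 D1399Y replicates 1 and 2. Compared directly, IL1RN under the core exceeded its level under VP64 3.38-fold (2.43 to 4.69, adjusted p = 0.0235, edgeR). The difference between the inactive proteins did not pass, with D1399Y at 1.17-fold of dCas9 (0.749 to 1.83, adjusted p = 0.743, edgeR).

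Measured against its own nearest control, with no library shared, VP64 over dCas9 gave a log2 difference of 1.89 ± 0.27 SE for IL1RN (adjusted p = 0.0873, edgeR) and core over D1399Y gave 3.42 ± 0.25 SE (adjusted p = 3.07e-05, edgeR). The difference between these effects was 1.53 ± 0.37 SE on the log2 scale, with an adjusted p of 0.847 (edgeR) over all genes.

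No other gene passed between the classes. Before adjustment, p lay under 0.05 (edgeR) in 119 genes that were higher (0.814% of those tested) and in 41 that were lower (0.28%). Evenly spread p-values would put a share of 0.05 there, so these p-values ran large. Over the 24 alternatives the count in both directions ran from 120 to 682. No gene passed downward after adjustment by edgeR. DESeq2 and limma-voom likewise called IL1RN alone. Differences over 2-fold were found in 7 genes upward (0.0479%) and 0 downward (0%). For a gene at 10 to 100 CPM the median 95% interval reached 1.24-fold to either side, and for a gene at 1 to 10 CPM, the range of most genes named below, it reached 1.46-fold. These unadjusted intervals describe single genes and are not the limit of the adjusted test: 72 genes were over 1.5-fold higher and 27 lower, and IL1RN alone was called. They measure the spread between transfections of 1 line. In a bulk culture, fewer cells expressing a gene and less RNA per cell cannot be told apart.

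**Figure D2:**
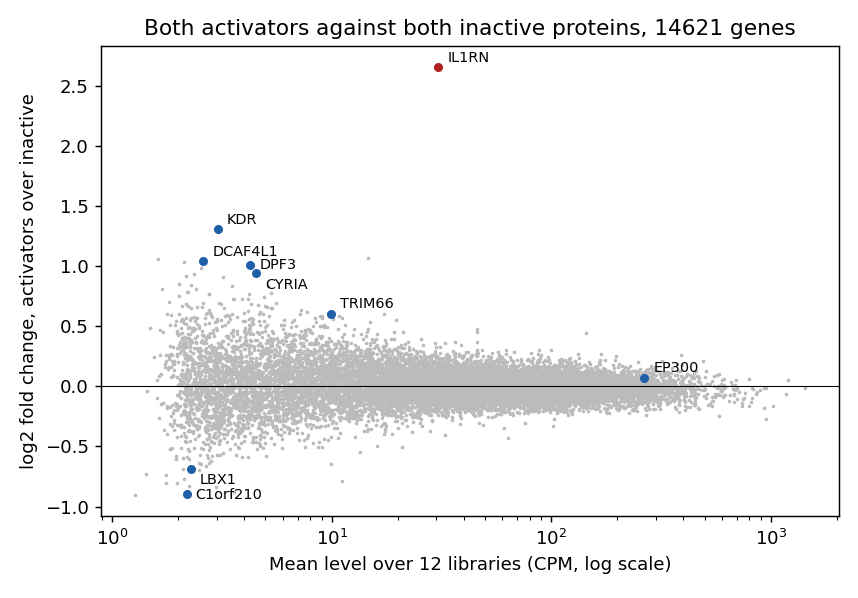
Log2 difference between both activators and both inactive proteins against mean level in CPM (log axis) for the genes tested, 1 point per gene, with named genes marked. IL1RN stands alone at 2.65, and no gene lies below -1.

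The genes next after IL1RN by p were mostly expressed at a few CPM, and all had an adjusted p of 0.9999 (edgeR). TRIM66, a tripartite motif protein of the TIF1 family, was 9.03, 7.16 and 7.96 CPM with dCas9 and 8.12, 6.39 and 8.49 CPM with D1399Y. It was 10.6, 12.5 and 10.9 CPM with VP64 and 13.7, 11.4 and 12.9 CPM with the core. All 6 activator libraries lay above all 6 inactive ones. The log2 difference of TRIM66 was 0.60 ± 0.15 SE (unadjusted p = 0.00113, edgeR), with 0.49 for VP64 over dCas9 and 0.71 for core over D1399Y.

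TRIM61, another tripartite motif protein, whose promoter is shown above, measured 2.26, 4.77 and 2.28 CPM with dCas9 and 3.79, 4.36 and 4.51 CPM with D1399Y. With VP64 it measured 5.42, 5.60 and 6.37 CPM and with the core 5.79, 7.31 and 6.58 CPM. The classes did not overlap for this gene either. Its log2 difference was 0.74 ± 0.21 SE (unadjusted p = 0.0031, edgeR), with 0.84 for VP64 over dCas9 and 0.64 for core over D1399Y.

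DPF3, a subunit of BAF chromatin remodelling complexes that reads acetylated and methylated histone tails, measured 1.41, 2.63 and 1.90 CPM with dCas9 and 4.87, 3.20 and 2.92 CPM with D1399Y. With VP64 it measured 5.17, 5.09 and 2.29 CPM and with the core 8.16, 6.93 and 6.58 CPM. The lowest VP64 library lay among the inactive ones, so the classes overlapped. The log2 difference of DPF3 was 1.01 ± 0.25 SE (unadjusted p = 0.00141, edgeR), with 1.05 for VP64 over dCas9 and 0.97 for core over D1399Y.

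DCAF4L1, a WD repeat protein, was 1.98, 1.19 and 1.90 CPM with dCas9 and 1.89, 1.16 and 1.59 CPM with D1399Y. It was 1.72, 2.29 and 2.80 CPM with VP64 and 5.00, 4.23 and 5.53 CPM with the core. The 3 core libraries were the high ones, and 5 of the 6 activator libraries lay above all inactive libraries. The log2 difference of DCAF4L1 was 1.04 ± 0.25 SE (unadjusted p = 0.000823 by edgeR's quasi-likelihood test), with 0.45 for VP64 over dCas9 and 1.63 for core over D1399Y. It reached the count minimum (2.63 CPM) in the 3 core libraries, in 1 VP64 library and in 0 inactive libraries, so DCAF4L1 too entered the test only through the class where it was high.

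In 7 genes all 6 activator libraries lay above all 6 inactive libraries (0.0479% of genes tested), namely IL1RN, TRIM66, TRIM61, NCMAP, CDNF, SUSD6 and TRIOBP. NCMAP, a membrane protein of noncompact myelin, was 2.15 to 3.52 CPM in the inactive and 3.66 to 6.37 CPM in the activator libraries (log2 difference 0.72 ± 0.22 SE). CDNF, a neurotrophic factor of the endoplasmic reticulum, was 2.82 to 5.57 CPM and 5.58 to 9.17 CPM (0.65 ± 0.20 SE). The gap between the nearest libraries of the classes was thus near 0 for CDNF. TRIOBP, a binder of filamentous actin, ran from 37.0 to 44.6 CPM and from 46.8 to 55.6 CPM (0.25 ± 0.09 SE). SUSD6 ran from 23.1 to 28.2 CPM and from 29.8 to 35.4 CPM (0.26 ± 0.10 SE).

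In 3 genes (0.0205%) all activator libraries lay below all inactive ones. CCNB1IP1, a ubiquitin ligase that regulates cyclin B, was 288 to 331 CPM in the inactive and 265 to 278 CPM in the activator libraries (log2 difference -0.19 ± 0.07 SE). TFB1M, which methylates mitochondrial ribosomal RNA, was 43.6 to 57.3 CPM and 36.1 to 43.1 CPM (-0.18 ± 0.10 SE). WDR49 was 5.93 to 6.83 CPM and 3.27 to 5.85 CPM (-0.37 ± 0.16 SE). None of the separated genes other than IL1RN was called, and without any 1 library the count of such genes in either direction rose from 10 to between 14 and 36.

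**Figure D3:**
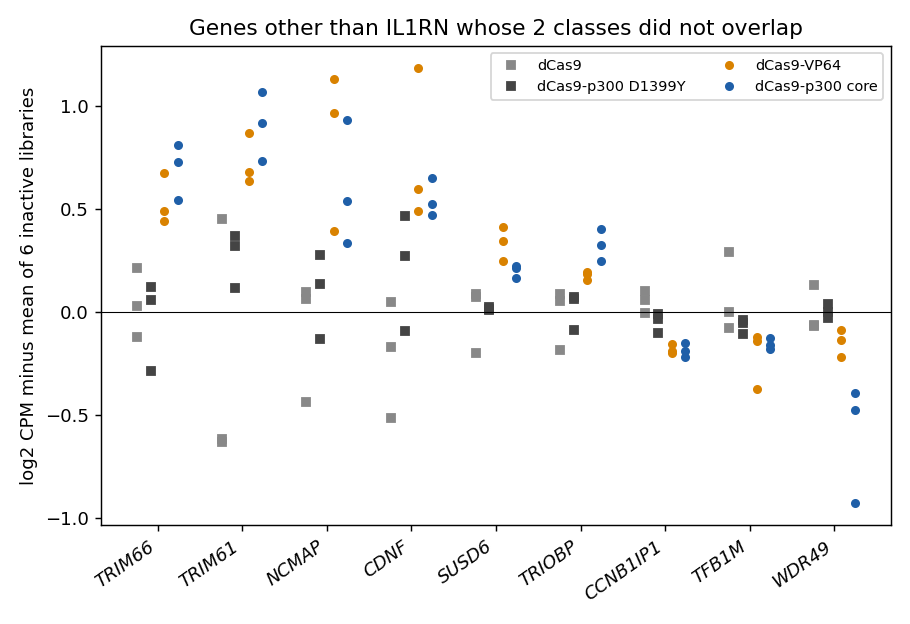
Log2 CPM of each library minus the mean log2 CPM of the 6 inactive libraries, for the 9 genes other than IL1RN whose classes do not overlap; squares are inactive and circles activator libraries, coloured by group. The first 6 genes lie higher and the last 3 lower with the activators, with CDNF parted by as little as 5.57 against 5.58 CPM.

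Taken 1 route at a time against the same 6 inactive libraries, the 3 VP64 libraries lay above all inactive ones in 46 genes (0.315%) and below in 36 (0.246%), and the 3 core libraries above in 183 genes (1.25%) and below in 80 (0.547%). These counts share the 6 inactive libraries and are given side by side.

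The comparisons VP64 over dCas9 and core over D1399Y have no library in common, so genes found in both are free of a shared control. At an unadjusted p under 0.05 (edgeR), VP64 over dCas9 gave 450 genes, of which 242 were higher (1.66% of genes tested) and 208 lower (1.42%). Core over D1399Y gave 266 genes, of which 194 were higher (1.33%) and 72 lower (0.492%). The 4 genes higher in both were DPF3, IL1RN, TRIM61 and TRIM66, which is 1.65% of the 242 higher with VP64 and 2.06% of the 194 higher with the core. These shares lie near the 1.33% and 1.66% that core over D1399Y and VP64 over dCas9 gave among all genes. No gene was lower in both. More genes, 17, moved in opposite directions than in the same one, and no share over all genes was computed for that count. At an unadjusted p under 0.01 each list held 52 genes, and under 0.001 the lists held 2 and 10. IL1RN was the 1 gene higher in both at either level.

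**Figure D4:**
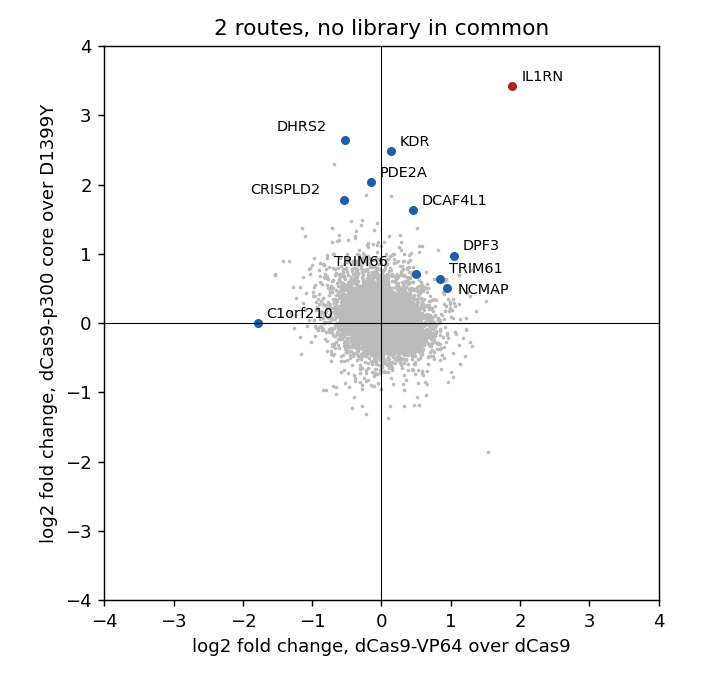
Log2 difference of core over D1399Y (vertical) against VP64 over dCas9 (horizontal), 1 point per gene tested, with named genes marked. IL1RN lies far up on both axes (1.89 and 3.42), KDR rises along the vertical axis alone (0.13 and 2.48), and C1orf210 lies at -1.79 on the horizontal axis and close to 0 on the vertical one.

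Which genes join IL1RN in both lists depended on single libraries. Leaving out each library in turn gave 3 to 14 genes higher in both, and IL1RN was among them each time. DPF3 was absent from 3 of these 12 lists that leave 1 library out, TRIM66 from 3 and TRIM61 from 7. Without dCas9 replicate 2 the VP64 list grew to 1900 of 14840 genes tested, and the core list held 325. In that setting 14 genes were higher in both, 1 was lower in both and 30 moved in opposite directions. Without dCas9 replicate 3 the lists held 624 and 648 of 14772 genes, and 23 genes moved in opposite directions. There, 8 were higher in both, among them DPF3 but neither TRIM61 nor TRIM66, and 2 were lower in both.

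KDR, the main signalling receptor for VEGFA and a marker of endothelium, rose with the p300 core and not detectably with VP64. Its level was 0.847, 1.67 and 0.759 CPM with dCas9, 2.16, 0.581 and 1.59 CPM with D1399Y, and 0.493, 1.78 and 1.53 CPM with VP64. With the core it was 7.11, 8.85 and 8.95 CPM, above every other library. Against the 6 inactive libraries the core raised KDR 6.30-fold (95% interval 3.85 to 10.3, adjusted p = 0.00972, edgeR), 1 of the 2 genes this comparison called (0.0137%), the other being IL1RN. With VP64 its log2 difference was -0.04 ± 0.47 SE, an interval of 0.481-fold to 1.97-fold. Core over D1399Y, which shares no library with VP64 over dCas9, gave KDR a log2 difference of 2.48 that did not pass after adjustment. The direct difference between core and VP64 for KDR did not pass either (adjusted p = 0.0771, edgeR). The call for the core against the 6 inactive libraries was lost without core replicate 2 or 3 and among the CV41 libraries alone. KDR reached the count minimum (2.63 CPM in 3 libraries) in the 3 core libraries alone, so it entered the test only through the group where it was high. Of the 10 VEGF ligands and receptors listed, 9 were tested and the other 8 lay between -0.17 and 0.08 (log2, both activators over both inactive proteins; -0.26 to 0.24 without dCas9 replicate 3). Of the other 11 endothelial markers, FLT1, EGFL7 and EMCN were tested and not called, and PECAM1, TEK, VWF, CDH5, CLDN5, TIE1, ERG and ROBO4 held 0 to 68 reads summed over all 12 libraries.

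Without dCas9 replicate 3, edgeR called 7 of 14772 genes for the core and 2 for VP64, namely IL1RN and EP300. Reads of EP300 also come from the p300 plasmids, and 1 of the 2 inactive proteins is a p300 fusion. The DESeq2 calls for the core that follow are a separate list, from all libraries. There, 5 genes beyond IL1RN and KDR were called by DESeq2 and not by edgeR (7 genes in all with IL1RN and KDR, 0.0479%). CRISPLD2, DHRS2, NFASC and PDE2A are named here after their values were seen, while CYRIA was also among the genes of smallest p between the classes. Against the inactive proteins all 5 lay between -0.40 and 0.17 (log2) with VP64. PDE2A, a phosphodiesterase that degrades cyclic AMP and cyclic GMP, was 7.11, 12.5 and 9.48 CPM with the core and 1.16 to 4.07 CPM elsewhere. Its log2 difference was 1.87 ± 0.31 SE for the core and 0.01 for VP64 (adjusted p for the core 0.109, edgeR). CYRIA, an inhibitor of RAC1-driven actin branching, was 9.74, 9.43 and 8.95 CPM with the core and 0.847 to 5.81 CPM elsewhere (3.38-fold for the core, adjusted p = 0.112, edgeR).

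CRISPLD2, a secreted glycoprotein, was 10.3, 9.62 and 10.5 CPM with the core and 1.14 to 5.01 CPM elsewhere (log2 1.64 ± 0.28 SE, adjusted p = 0.109, edgeR). NFASC, an axonal adhesion protein, was 15.0, 13.7 and 17.1 CPM with the core and 4.32 to 8.66 CPM elsewhere (log2 1.22 ± 0.21 SE, adjusted p = 0.121, edgeR). DHRS2, a mitochondrial short-chain dehydrogenase, was 48.7, 20.02 and 25.3 CPM with the core. Its levels elsewhere ran from 4.36 to 24.3 CPM, the highest being dCas9 replicate 3, so it was the 1 gene of the 5 in which the core libraries overlapped another library (adjusted p = 0.179, edgeR). For DHRS2, VP64 over dCas9 was -0.52 (0.18 without dCas9 replicate 3) and core over D1399Y 2.65 on the log2 scale.

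The genes lowest with the activators were called by no test. C1orf210 was 1.35 to 3.95 CPM in the inactive libraries, 0.985, 1.02 and 0.764 CPM with VP64 and 2.11, 1.92 and 2.90 CPM with the core. Its log2 difference was -0.90 ± 0.30 SE (unadjusted p = 0.0094, edgeR), and its libraries were low with VP64 only, where they lay below every other library. Among the other genes of smallest p downward were SNHG3, AGAP2-AS1, HOTAIRM1, LBX1, HOXB-AS3 and CNN3-DT, with log2 differences from -0.69 (LBX1) to -0.32 (SNHG3). LBX1 reached the count minimum (2.63 CPM in 3 libraries) in 3 inactive and 0 activator libraries, and C1orf210 in 4 and 1. Both therefore entered the test only through the class where they were high. HOTAIRM1, a long noncoding RNA, was 27.1 to 41.7 CPM in the inactive and 19.8 to 29.8 CPM in the activator libraries (-0.37 ± 0.14 SE). No source used here states whether reads were counted by strand, so reads of antisense partners cannot be told apart. In HOTAIRM1, HOXB-AS3 and CNN3-DT the highest library was dCas9 replicate 3, and without it their log2 differences were -0.28, -0.35 and -0.37 in place of -0.37, -0.47 and -0.51.

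As a description of likeness, Pearson's r with IL1RN over the 12 libraries (log2 CPM) was highest for DCAF4L1 (0.890), TRIOBP (0.885), RIMS4 (0.871), RGS7 (0.865) and MPPED1 (0.854). SMIM17, ZBTB7C, HMGCLL1, OSMR and TRIM66 followed, at 0.850 to 0.831. MPPED1 reached the count minimum in 5 activator libraries and 1 inactive library, so it was also tested only through the class where it was higher. The libraries fall into groups by design, so these coefficients are no test. OSMR, a receptor subunit for oncostatin M among other ligands, was the 1 of the 10 that also had r over 0.8 within each class, 0.988 over the 6 activator and 0.884 over the 6 inactive libraries. OSMR was 2.26 to 4.51 CPM in the inactive libraries, 3.94, 3.82 and 4.07 CPM with VP64 and 5.53, 5.77 and 5.53 CPM with the core (log2 difference 0.45 ± 0.19 SE). DCAF4L1 had r of 0.938 over the activator and -0.22 over the inactive libraries.

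No other tested member of the interleukin 1 family passed the test. Of 22 ligands and receptors listed, 6 were tested, IL1RN alone was called, and 7 had no read in any library. IL1B had 2 reads in all activator and 0 in all inactive libraries, and IL1A had 1 in each class. IL1R1, the signalling receptor that the antagonist occupies, had a log2 difference of -0.11 ± 0.32 SE, and IL1RAP, its partner chain, 0.02 ± 0.31 SE. SIGIRR, an inhibitory receptor, was at -0.07 ± 0.18 SE. IL18R1, the interleukin 18 receptor, was at 0.16 ± 0.19 SE, and IL18BP, the decoy for interleukin 18, at -0.24 ± 0.40 SE. Without dCas9 replicate 3 these values were -0.22 for IL1R1, -0.19 for IL1RAP, 0.08 for SIGIRR, 0.12 for IL18R1 and -0.47 for IL18BP. The sign of IL1RAP and of SIGIRR thus turned on that library.

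Downstream of the receptor, 28 of 29 listed signalling genes were tested and 0 were called. Of these, 18 lay above 0 with a median of 0.03 (log2), beside 7342 of 14621 and a median of 0.00 over all genes tested. Without dCas9 replicate 3 the sign turned, with 11 of 28 above 0 and a median of -0.03. IRAK3, an inhibitory kinase of the pathway, was the highest at 0.43 ± 0.25 SE (0.40 without that library). MYD88, the receptor adaptor, was at -0.02 ± 0.23 SE (-0.15 without it). The targets of NF-kB, the transcription factor this pathway activates, also had 0 calls. Of their 17 tested members 7 lay above 0 (median -0.08), and 4 without dCas9 replicate 3 (-0.09). The routes differed in sign. For VP64 over dCas9, 5 lay above 0 (median -0.24), and for core over D1399Y 11 did (0.13), so the class median describes neither. NFKBIA, the feedback inhibitor of NF-kB, was at -0.16 ± 0.11 SE between the classes and -0.09 without dCas9 replicate 3.

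Of the genes near IL1RN on chromosome 2, 8 of 18 found in the files were tested and 0 were called. RABL2A, a small GTPase, was the highest at 0.24 ± 0.24 SE (log2), PSD4, the first neighbour listed, was at 0.21 ± 0.32 SE and SLC20A1, a phosphate transporter and the 1 below 0, at -0.04 ± 0.08 SE. The median of the 8 was 0.05, with 7 above 0, and without dCas9 replicate 3 it was 0.07, with 5 above 0. IL36RN, IL36A, IL36B, IL36G, IL37 and IL1F10, the family members in the same cluster, had 0 reads in all 12 libraries. PAX8 had 4 reads in all activator and 2 in all inactive libraries.

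**Figure D5:**
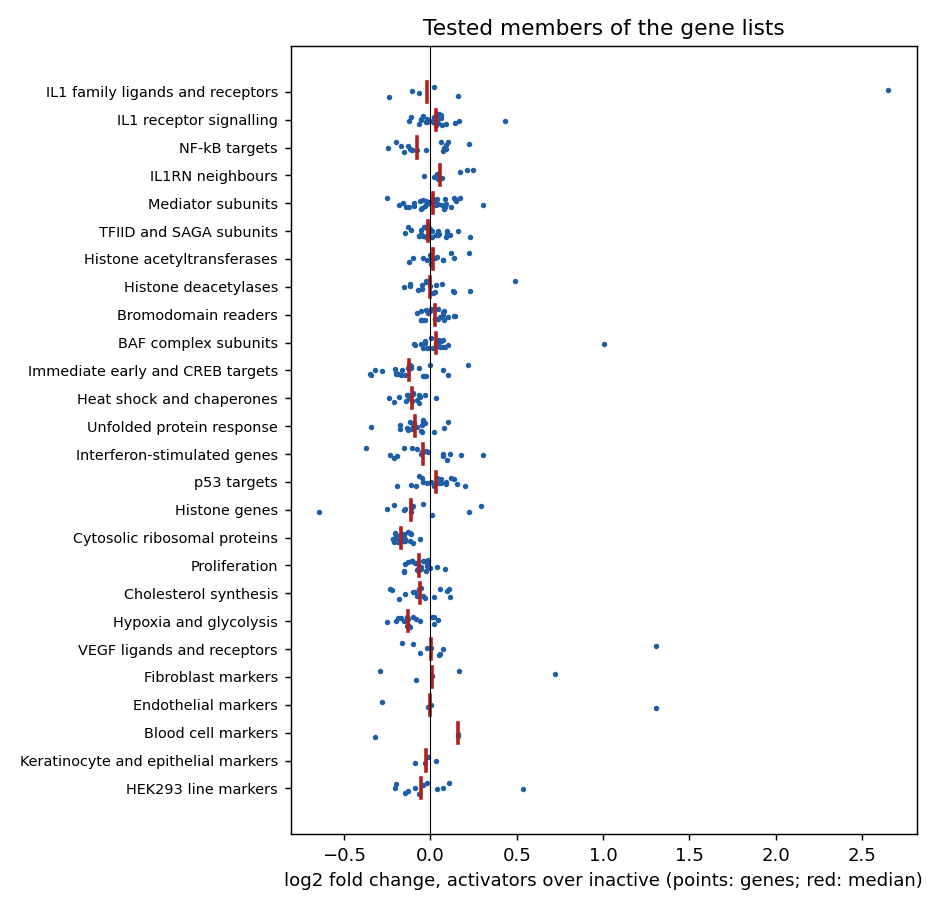
Log2 difference between both activators and both inactive proteins for the tested members of each gene list, 1 point per gene, with the median of each of the 26 lists with 3 or more such members as a red bar. IL1RN, KDR and DPF3 are the members farthest to the right, and all 34 ribosomal protein genes lie below 0.

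Of the coactivator and chromatin genes listed, 0 were called between the classes, and several of their medians, all close to 0, changed sign without dCas9 replicate 3. Mediator, the coactivator complex that VP64 recruits, had 33 subunits tested, 18 of them above 0 (median 0.02, log2), and 14 without that library (-0.01). They ran from MED18 at -0.25 ± 0.16 SE to MED12 at 0.30 ± 0.18 SE, which became -0.15 and 0.14 without it. The 30 subunits of TFIID and SAGA had 12 above 0 with and without it, and medians of -0.01 and -0.04. Among the 14 acetyltransferases 9 lay above 0 (median 0.01), and 5 without that library (-0.09). CREBBP, the paralog of EP300, was at 0.13 ± 0.14 SE and 0.03 without it. The 17 deacetylases had a median of 0.00, and 0.04 without it. HDAC9 was the highest at 0.49 ± 0.31 SE and 0.32 without that library, on 237 reads in all. Its routes went opposite ways, with 1.31 for VP64 over dCas9 and -0.33 for core over D1399Y. The 23 bromodomain proteins, which bind acetylated lysines, had a median of 0.03, and -0.03 without dCas9 replicate 3. The 24 BAF subunits had a median of 0.03 in both cases, with DPF3 as the highest at 1.01 with all libraries.

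Other programmes were likewise without a call. Immediate early and cyclic AMP response genes had 3 of 25 members above 0 (median -0.12; 6 and -0.14 without dCas9 replicate 3), with JUNB at -0.34 ± 0.17 SE, which became -0.20 without that library. Heat shock genes had 1 of 16 above 0 (median -0.11), and 2 without it (-0.06). The unfolded protein response had 3 of 20 above 0 (-0.09), and 4 without it (-0.07). Interferon-stimulated genes had 6 of 18 above 0 (-0.05), and 9 without it (0.01). The p53 targets had 13 of 20 above 0 (0.03), and 12 without it (0.02). Hypoxia and glycolysis genes had 4 of 17 above 0 (median -0.13), and 0 without it (-0.12), while the median became 0.02 without dCas9 replicate 1. Cholesterol synthesis genes had 5 of 16 above 0 (-0.06), and again 5 without dCas9 replicate 3 (-0.09). Replication and mitosis genes had 2 of 24 above 0 (-0.06), and 7 without it (-0.02). Histone genes had 3 of 13 above 0 (-0.11), with H1-2, a linker histone, at -0.65 ± 0.27 SE. Several of these medians averaged unlike routes. Against the same 6 inactive libraries, p53 targets had 16 of 20 above 0 with VP64 (median 0.12) and 5 with the core (-0.08). Medians there were -0.14 and 0.03 for cholesterol synthesis and -0.15 and 0.02 for interferon-stimulated genes. Against its own nearest control, VP64 gave -0.23 for immediate early and -0.23 for hypoxia genes, and the core gave 0.03 and 0.01.

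Of the 34 cytosolic ribosomal protein genes 0 lay above 0, with a median of -0.17 and a range from -0.22 to -0.06, and 0 were called. Without dCas9 replicate 3 the median was -0.08, with 1 of 34 above 0.

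Of the other genes that the wider study activated, POU5F1 alone reached the level tested, at -0.24 ± 0.20 SE (log2) and -0.08 without dCas9 replicate 3. MYOD1 had 46 reads in the activator and 31 in the inactive libraries, HBE1 had 6 in each, and HBG1, HBD and HBB had 0. The markers of the kidney line were all expressed and none was called. All 12 were tested, from -0.21 (LHX1) to 0.54 ± 0.43 SE (PAX2), and their summed level was 1237 to 1441 CPM in the activator and 1190 to 1485 CPM in the inactive libraries.

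Summed levels of the markers of other cell types lay below that of the kidney line markers and overlapped between the classes. Their part in the results was not tested. KDR, a member of the endothelial list, was high in the core libraries, as given above. The summed level of 12 fibroblast markers was 124 to 168 CPM in the activator and 129 to 185 CPM in the inactive libraries, mostly FBLN1, with FAP and THY1 at 0 and COL1A2 at 1 read in all. The 12 endothelial markers summed to 82.9 to 112 CPM and 78.5 to 111 CPM, mostly FLT1 and EGFL7. The 12 blood markers summed to 12.8 to 22.4 CPM and 12.5 to 22.8 CPM, with CD3E and MS4A1 at 0. The 12 keratinocyte and epithelial markers summed to 47.9 to 58.2 CPM and 46.2 to 64.1 CPM, with KRT5, KRT14, KRT1 and IVL at 0.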

How the data were processed

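The 12 HEK293T libraries, 3 per transfected protein, were analysed from raw counts per RefSeq transcript that the authors deposited. Build hg19, Bowtie2, CASAVA, SAMtools, DESeq2 1.6.2 and R 3.1.2 stand in the submitters' processing notes without further settings, and no source used here states the strand setting. Replicates are separate transfections of 1 line, per the labels' protocols. Of 40709 transcripts, 39320 took a gene name from the RefSeq table and 520 from GENCODE; 869 stayed unnamed and held 1.07% of reads. Transcripts were summed per gene, giving 24408 features, of which 14621 passed edgeR's filterByExpr (count minimum 10, total minimum 15).

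Tests were edgeR 4.0.16 quasi-likelihood contrasts of 4 group means over all 12 libraries in R 4.3.3 with TMM scaling, and p-values were adjusted by Benjamini-Hochberg over all 14621 genes (threshold 0.05). CPM are TMM-scaled; r values and the permutation test used log2 CPM with a prior count of 2. DESeq2 1.42.0, limma-voom (limma 3.58.1), other scalings and filters, and each library left out were alternatives. Totals ran from 2442960 to 5154627 counts, and the median standard error was 0.151 (log2). None of the 12 replicate pairs within groups agreed within sampling noise. The scripts were also run on simulated counts with known changes put in. That simulation held no outlying library and no tie between replicates, so it does not bear on those features of these data.

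The groups, the members and all 27 gene lists (514 symbols; NT5DC4, BRD1 and CECR2 are not analysed here) were chosen with earlier results of these data known. Genes named were IL1RN and EP300, genes called, the 8 of smallest p each way, up to 8 with non-overlapping classes each way, the 10 most like IL1RN, and up to 3 per list by p; others are named for a stated role or after their values were seen. A gene among those of smallest p is not reported here. Promoters are RefSeq, GRCh38.p14; of 10 genes looked up, 9 had one.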

Additional observations from a re-analysis of the deposited data

Results flagged for a closer look

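IL1RN differed between the activators. Measured against the same 6 inactive libraries, the effect of dCas9-p300 core exceeded that of dCas9-VP64 by 1.755 on the log2 scale (± 0.22 SE), which is 3.38-fold, with an adjusted p of 0.0235 by edgeR's quasi-likelihood test over all genes. All 3 core libraries (73.2 to 89.3 CPM) lay above all 3 VP64 libraries (19.3 to 31.3 CPM). With each activator set against its own nearest control, the difference was 1.53 ± 0.37 SE with an adjusted p of 0.847 (edgeR).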

How the results depend on the processing

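The rise of IL1RN between the classes kept its direction and its call in all 24 alternatives, from 2.53 to 2.90 on the log2 scale with adjusted p from 1.01e-37 to 0.0286 across edgeR, DESeq2 and limma-voom, and IL1RN was the 1 gene called each time. The labels do not say that replicate numbers pair the libraries, and the fits reported do not pair them. Deviations of same-numbered libraries correlated at -0.296 to 0.622 (median 0.275, 13 of 18 pairs over 0.1), and of others at a median of -0.134. Each deviation was taken from the mean of its own group, so deviations sum to 0 there. Positive values for same-numbered pairs thus push the others below 0, and the -0.134 is no separate evidence. Each of the 12 libraries correlated best with one of its own number, a hint from the data and not the design. The fit with a replicate block gave IL1RN a log2 difference of 2.66 (adjusted p = 7.975e-06, edgeR), and the block changed no call. Genes called for the core against both inactive proteins went from 2 to 7 with DESeq2, 6 with no filter on low counts and 1 among the CV41 libraries alone, and ranged from 1 to 7 with 1 library left out (7 without dCas9 replicate 3, 1 without core replicate 2 or 3). For VP64 the 1 call became 0 among the CV41 libraries alone and ranged from 0 to 2 with 1 library left out (2 without dCas9 replicate 3, which added EP300). The count of 10 genes with separated classes ranged from 14 to 36 with 1 library left out, an added alternative that also compares fewer libraries. Robust and newer quasi-likelihood fits were also added after seeing the data. Over the 109 genes taken through the alternatives, 2594 values kept their sign and 22 reversed it, none of the latter called. Genes outside that set, such as IL1RAP and SIGIRR, are not in this count. Among the reversals, IL18BP became 0.11 with limma-voom, EGFL7 0.0047 with limma-voom and 0.082 among the CV41 libraries alone, and EP300 -0.044 with 2 classes of 6. With 1 library left out the values ranged from -0.089 to 0.22 for EP300, -0.096 to 0.052 for EGFL7, -0.15 to 0.14 for CDH1, -0.096 to 0.17 for DSG3, -0.26 to 0.020 for NRP1, -0.15 to 0.035 for TRIM28, -0.13 to 0.0018 for SMARCB1 and -0.24 to 0.00098 for VEGFB. The cause of these shifts was not tested. Intervals were widest for the genes of 1 to 10 CPM, where the median 95% interval reached 1.46-fold to either side. The part of depth in this was not tested.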
